A study of Mus musculus with 4 samples.

Results

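The lysyl oxidase family was examined in RNA-Seq of inner medullary collecting duct (IMCD) cells, from the epithelium that lines the end of the collecting duct. Its members were taken by symbol, Lox, Loxl1, Loxl2, Loxl3 and Loxl4, and each had a row of its own, so that 5 of 37981 deposited gene loci are described. The family was chosen by its FPKM in TβRII-/- and TβRII fl/fl cells in both media, so all member values below are a description. The cells came from mice of the C57B/l strain with floxed Tgfbr2, the gene for TGF-β type II receptor (TβRII), and were immortalized with psv40. TβRII-/- cells had received adeno-Cre, an adenovirus that carries the Cre recombinase, and TβRII fl/fl cells, with the receptor intact, were untreated, so loss of TβRII cannot be told apart from exposure to virus or Cre. Each genotype was sequenced once after 4 days in serum-depleted medium (serum-starved) and once in serum-replete medium, which gives 4 libraries with 1 library per condition. No replicate error exists, no test was run, and every difference below is between single libraries of cultured populations, which carry the same pair of names in both media. Tgfbr2 was 73.7 FPKM in TβRII-/- cells against 143 FPKM in TβRII fl/fl cells after starvation, then 57.0 FPKM in TβRII-/- against 163 FPKM in TβRII fl/fl cells in replete medium, so the gene-level value was lower but far from 0. FPKM counts fragments relative to transcript length and sequencing depth, which allows levels to be compared between genes.

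Lysyl oxidases are secreted, copper-dependent amine oxidases. They turn lysines of collagen and elastin into reactive aldehydes, from which the covalent crosslinks that stiffen and stabilize matrix form, and they are studied in the kidney for their part in fibrosis. Lox and Loxl1 are made as proenzymes with a long propeptide, whereas Loxl2, Loxl3 and Loxl4 carry scavenger receptor cysteine-rich domains before the shared catalytic end. TGF-β and hypoxia are known inducers of Lox.

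What makes these genes a family is the copper-binding stretch of the catalytic end, in which histidines hold the metal. A search of the GENCODE M21 coding sequences (GRCm38) found the pattern His-X-Cys-His-X-His-Tyr-His once in each of the 5 genes. It is shown for Loxl1 to Loxl4 from the coding strand, 5′ to 3′, with the codons of the pattern in capitals and flanking codons in lower case.
Loxl1: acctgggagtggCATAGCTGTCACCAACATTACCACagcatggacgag
Loxl2: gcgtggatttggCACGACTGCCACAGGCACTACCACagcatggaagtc
Loxl3: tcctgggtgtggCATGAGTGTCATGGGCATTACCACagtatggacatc
Loxl4: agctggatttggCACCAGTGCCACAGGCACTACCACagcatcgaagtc
In all 4 genes the stretch crosses an exon junction. Its outer bases lie at chr9:58293708-58294384 on the minus strand for Loxl1 (exons 3 and 4) and at chr14:69682313-69689049 on the plus strand for Loxl2 (exons 10 and 11). For Loxl3 they lie at chr6:83049992-83050137 on the plus strand (exons 10 and 11), and for Loxl4 at chr19:42598795-42599902 on the minus strand (exons 11 and 12). Loxl2 and Loxl4 share 42 of the 48 bases shown, and Loxl1 and Loxl4 share 31, the fewest of these pairs. Over the last 600 coding bases the family splits into the groups named above. Lox and Loxl1 were 72.7% identical, Loxl2, Loxl3 and Loxl4 were 66.7% to 69.3% identical to each other, and identity across the groups was 48.6% to 51.7%. No pair of members was near identical over this length.

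After serum starvation, Lox and Loxl4 were at least 2-fold higher in TβRII-/- than in TβRII fl/fl cells and no measured member was lower. In serum-replete medium Loxl4 was again higher, whereas Lox and Loxl2 were lower. Loxl1 did not differ by 2-fold in either medium, and Loxl3 was under 1 FPKM in all 4 libraries and was not called. Calls were made where the log2 ratio of FPKM + 1 reached 1 in size, for loci at 1 FPKM or more in at least 1 library of the medium. Under this rule 2 of 4 members tested were higher after starvation, where 8.02% of 12687 loci were higher and 6.64% were lower (14.7% together). In replete medium 1 of 4 was higher and 2 of 4 were lower, where 7% of 12635 loci were higher and 11.1% were lower (18.1% together). No member was lower in both media, as 4.56% of 12162 loci tested in both were. With 4 genes, chosen for these values, nothing is read from these shares. The median log2 ratio over all loci tested was 0.028 in starved and -0.029 in replete cells.

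**Figure D1:**
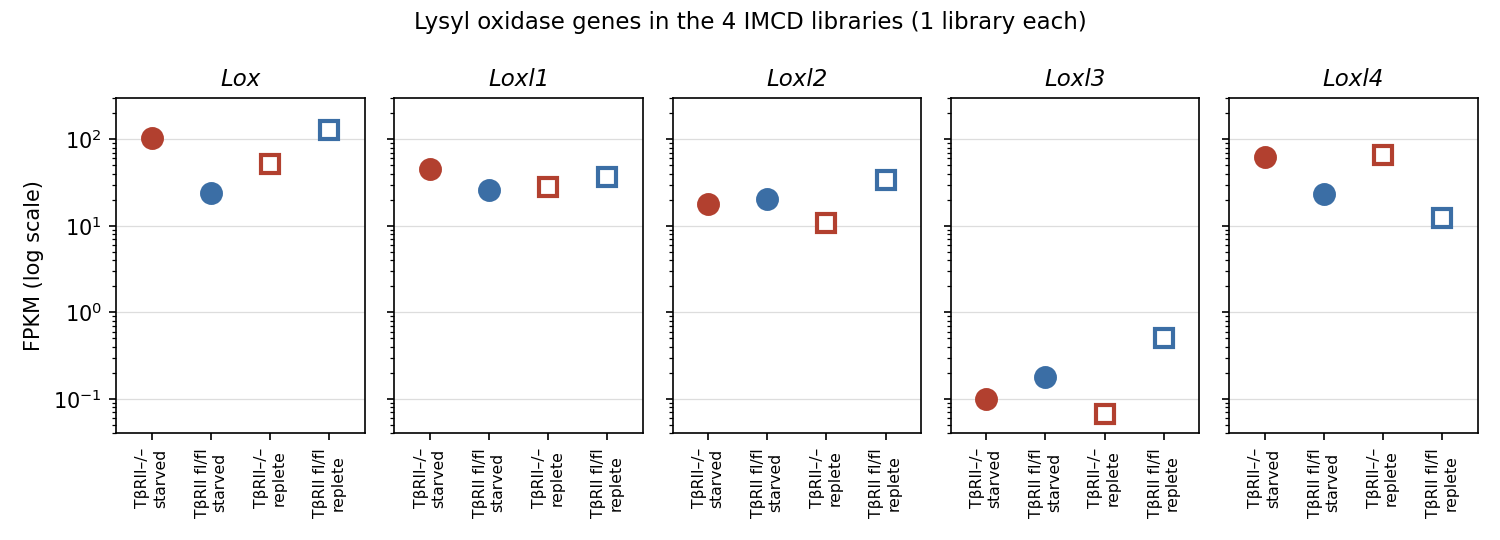
FPKM (log scale) of the 5 lysyl oxidase genes, 1 point per library, with TβRII-/- in red, TβRII fl/fl in blue, filled circles for serum-starved and open squares for serum-replete cells. Lox is higher in TβRII-/- cells after starvation (104 against 23.7 FPKM) and lower in replete medium (51.3 against 127 FPKM), Loxl4 is higher in both media, and Loxl3 stays under 1 FPKM.

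Lox, the founding member, acts on fibrillar collagen and elastin. It was 104 FPKM in TβRII-/- against 23.7 FPKM in TβRII fl/fl cells after starvation (log2 ratio 2.08). In replete medium it was 51.3 FPKM in TβRII-/- against 127 FPKM in TβRII fl/fl cells (log2 ratio -1.29). The genotypes thus stood in opposite order in the media, and Lox was the only member for which both differences passed 2-fold in opposite directions. Such a pattern was found in 35 of 12162 loci tested in both media (0.288%), and the reverse pattern in 36 (0.296%). The log2 ratios differed by 3.38 between the media, a difference that could not be tested with 1 library per condition. The tables of the media were normalized separately, so levels set across them are approximate. In TβRII-/- cells Lox was higher after starvation, with a log2 ratio of starved to replete of 0.87 after centering on the median of all loci. In TβRII fl/fl cells the same ratio was -2.40, larger in size and in the opposite direction. The Lox locus spans 52516069 to 52529867 on chromosome 18 of mm10 and holds no other deposited gene.

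Genes whose pattern was most like that of Lox were sought among 8680 protein-coding loci with at least 5 FPKM in a library of each medium, by distance in the plane of the 2 log2 ratios. None lay within 0.5 of Lox. The nearest were Fos, a subunit of the AP-1 transcription factor, at 0.57 and Map3k7cl at 0.58. Fos was 24.99 FPKM in TβRII-/- against 7.02 FPKM in TβRII fl/fl cells after starvation, then 4.62 FPKM in TβRII-/- against 9.31 FPKM in TβRII fl/fl cells in replete medium, where its log2 ratio of -0.88 did not reach 2-fold. Map3k7cl was 71.3 FPKM in TβRII-/- against 19.7 FPKM in TβRII fl/fl cells after starvation, then 29.7 FPKM in TβRII-/- against 51.8 FPKM in TβRII fl/fl cells in replete medium. Both genes shared the starved call of Lox, and the replete log2 ratio of Map3k7cl, -0.78, did not reach 2-fold either.

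**Figure D2:**
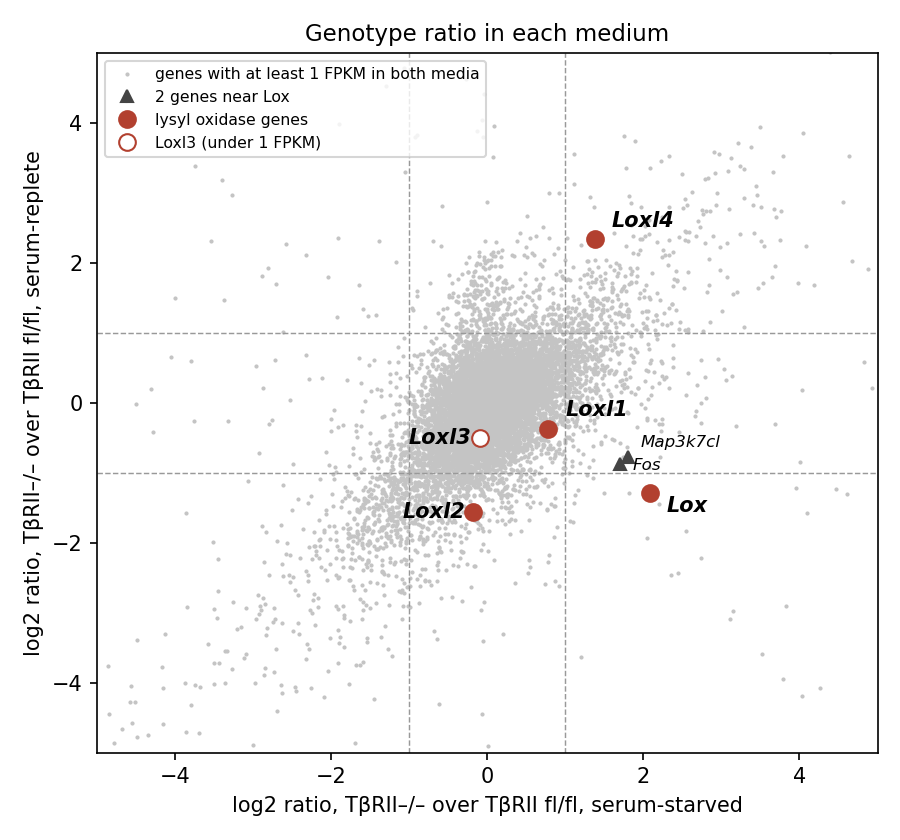
Log2 ratio of FPKM + 1 in TβRII-/- over TβRII fl/fl cells, serum-starved on the x axis and serum-replete on the y axis, for loci with at least 1 FPKM in both media (gray, 67 lie outside the axes). Dashed lines mark 2-fold. Lox (2.08 and -1.29) lies in the lower right near Fos and Map3k7cl (triangles), Loxl4 (1.38 and 2.34) in the upper right, and Loxl2 (-0.18 and -1.56) below the center.

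Loxl1, which crosslinks elastin and is tethered to elastic fibers by fibulin-5, was 45.0 FPKM in TβRII-/- against 25.7 FPKM in TβRII fl/fl cells after starvation (log2 ratio 0.78). In replete medium it was 27.9 FPKM in TβRII-/- against 36.3 FPKM in TβRII fl/fl cells (log2 ratio -0.37). The signs were those of Lox, but neither difference reached 2-fold. The centered log2 ratio of starved to replete was 0.54 in TβRII-/- and -0.502 in TβRII fl/fl cells. Loxl1 lies on chromosome 9 from 58287723 to 58313212.

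Loxl2, which crosslinks collagen IV of basement membranes and has been tied to Snail-driven epithelial-mesenchymal transition, was 17.9 FPKM in TβRII-/- against 20.4 FPKM in TβRII fl/fl cells after starvation (log2 ratio -0.18). In replete medium it was 10.8 FPKM in TβRII-/- against 33.7 FPKM in TβRII fl/fl cells (log2 ratio -1.56). Loxl2 thus differed between genotypes in replete medium alone, as did 638 of 12162 loci (5.25%) that were lower there and within 2-fold after starvation. The difference of its ratios between the media was not tested. The centered log2 ratio of starved to replete was 0.55 in TβRII-/- and -0.72 in TβRII fl/fl cells. The deposited Loxl2 locus ends at 69693698 on chromosome 14, short of the end of Loxl2 in GENCODE M21. A separate deposited locus without a gene name of its own, RP23-103I12.13, spans 69694475 to 69695834, and all 1360 bp of it lie in the last exon of Loxl2 there. That locus was 60.3 FPKM in TβRII-/- against 65.8 FPKM in TβRII fl/fl cells after starvation, then 32.1 FPKM in TβRII-/- against 108 FPKM in TβRII fl/fl cells in replete medium. Its log2 ratios of -0.12 and -1.72 lie close to those of Loxl2. It was counted apart from Loxl2 but in the same libraries, so it is no replicate. Its FPKM was above that of Loxl2 in all 4 libraries, and whether it reads the same transcript was not tested. The Loxl2 locus also covers a stretch with the gene model Gm21685, which was listed at 0 in all 4 libraries.

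The loci nearest to Loxl2 in the plane of ratios were a joined locus of 9630014M24Rik and Arhgap26 at a distance of 0.022, Lxn, a carboxypeptidase inhibitor, at 0.075, and Klc4, a kinesin light chain, at 0.079. In all, 154 of 8680 loci (1.77%) lay within 0.5 of Loxl2, 10 within 0.5 of Loxl4 and none within 0.5 of Lox. Loxl2 also lay nearer to the dense center of the plane, which the plot of ratios shows.

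Loxl4 was the member that stood higher in TβRII-/- cells in both media. It was 62.7 FPKM in TβRII-/- against 23.4 FPKM in TβRII fl/fl cells after starvation (log2 ratio 1.38), then 65.6 FPKM in TβRII-/- against 12.2 FPKM in TβRII fl/fl cells in replete medium (log2 ratio 2.34). Of 12162 loci, 361 were higher in both media (2.97%). Its level in TβRII-/- cells was nearly equal in the media (centered log2 ratio of starved to replete, -0.20), and in TβRII fl/fl cells it was higher after starvation (0.87), the opposite of Lox there. The nearest patterns were those of Psat1, an enzyme of serine synthesis, at a distance of 0.19, Ifi204, an interferon-inducible gene, at 0.32 and Arhgap22 at 0.33. Psat1 was 222 FPKM in TβRII-/- against 95.9 FPKM in TβRII fl/fl cells after starvation, then 180 FPKM in TβRII-/- against 36.7 FPKM in TβRII fl/fl cells in replete medium. Loxl4 lies on chromosome 19 from 42593982 to 42612813. Its RefSeq promoter (GRCm38.p6, 250 bases before to 50 after the start) held neither ACGTG, the core of the hypoxia response element, nor CAGACA, which SMAD proteins can bind, on either strand, and 19.6% and 21.04% of 32851 promoters held them. No other member was matched to a promoter here.

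Loxl3, which has roles in craniofacial and muscle development in the mouse, was 0.101 FPKM in TβRII-/- against 0.178 FPKM in TβRII fl/fl cells after starvation, then 0.0662 FPKM in TβRII-/- against 0.506 FPKM in TβRII fl/fl cells in replete medium. These values correspond to roughly 13 reads in TβRII-/- against 22 reads in TβRII fl/fl cells after starvation, then 11 reads in TβRII-/- against 64 reads in TβRII fl/fl cells in replete medium. All lay under the minimum of 1 FPKM, so no call was made. Its deposited locus, on chromosome 6 from 83034173 to 83057680, also holds Aup1 and Htra2. Aup1 was 53.8 to 67.0 FPKM and Htra2 31.1 to 71.2 FPKM over the 4 libraries, and how reads were divided between these genes and Loxl3 was not tested. For the other members the values rest on about 953 reads (Loxl4, TβRII fl/fl, replete) to 18725 reads (Lox, TβRII fl/fl, replete). These read numbers are rough estimates from depth and transcript length and cover counting error only, not differences between cultures.

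The order of the members changed with genotype and medium, with Loxl2 read from its own deposited locus, which ends short of the gene's end. The locus RP23-103I12.13 in its last exon was higher, at 60.3 FPKM in TβRII-/- against 65.8 FPKM in TβRII fl/fl cells after starvation. In replete medium it was 32.1 FPKM in TβRII-/- against 108 FPKM in TβRII fl/fl cells. The order, shares and sums below leave it out and would differ with its values in place of those of Loxl2. In TβRII-/- cells after starvation, Lox led, followed by Loxl4, Loxl1 and Loxl2. In TβRII fl/fl cells after starvation these genes lay within 20.4 to 25.7 FPKM, with Loxl1 first, and an order there cannot be told from single libraries. In TβRII-/- cells in replete medium Loxl4 led over Lox, Loxl1 and Loxl2, whereas in TβRII fl/fl cells Lox led over Loxl1, Loxl2 and Loxl4. Lox made up 45.2% of the family's summed FPKM in TβRII-/- against 25.4% in TβRII fl/fl cells after starvation, then 33.0% in TβRII-/- against 60.6% in TβRII fl/fl cells in replete medium. The share of Loxl4 was 27.3% in TβRII-/- against 25.1% in TβRII fl/fl cells after starvation, then 42.2% in TβRII-/- against 5.80% in TβRII fl/fl cells in replete medium, so that in replete medium the leading member differed between genotypes. The sum itself was 229 FPKM in TβRII-/- against 93.5 FPKM in TβRII fl/fl cells after starvation, then 156 FPKM in TβRII-/- against 210 FPKM in TβRII fl/fl cells in replete medium.

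**Figure D3:**
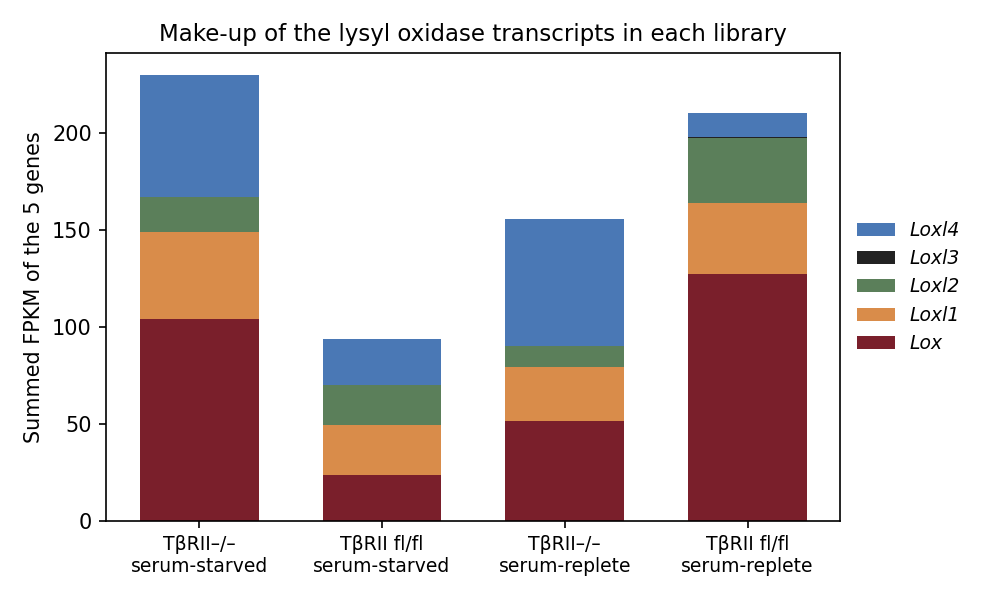
Summed FPKM of the lysyl oxidase genes in each library, stacked by gene with Lox at the bottom. Loxl2 is its own deposited locus, without the separate locus in its last exon. The sum is 229 FPKM in TβRII-/- against 93.5 FPKM in TβRII fl/fl cells after starvation, then 156 FPKM in TβRII-/- against 210 FPKM in TβRII fl/fl cells in replete medium, where Loxl4 is the largest part in TβRII-/- cells and Lox in TβRII fl/fl cells.

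The genes that Lox and its relatives work with were described from lists. The counts below stand beside the shares over all loci tested, 8.02% higher and 6.64% lower after starvation, then 7% and 11.1% in replete medium. Of proteins that cut or bind the Lox propeptide or its collagen substrate, Bmp1, the proteinase that frees active Lox, was 28.7 FPKM in TβRII-/- against 50.8 FPKM in TβRII fl/fl cells after starvation, then 28.9 FPKM in TβRII-/- against 173 FPKM in TβRII fl/fl cells in replete medium (log2 ratio -2.54). Postn (periostin), a matrix protein that brings Bmp1 to Lox, was 0.1403 FPKM in TβRII-/- against 2.89 FPKM in TβRII fl/fl cells after starvation, then 0.147 FPKM in TβRII-/- against 17.6 FPKM in TβRII fl/fl cells in replete medium. Both were thus lower in replete TβRII-/- cells, where Lox was lower as well. In starved TβRII-/- cells, where Lox was higher, Postn was lower (log2 ratio -1.77) and Bmp1 was within 2-fold (log2 ratio -0.80). The procollagen proteinase genes Adamts14 and Adamts2 were higher after starvation. Adamts14 was 5.50 FPKM in TβRII-/- against 0.585 FPKM in TβRII fl/fl cells. Adamts2 was 1.14 FPKM in TβRII-/- against 0.0517 FPKM in TβRII fl/fl cells, near the minimum and the threshold (log2 ratio 1.03). In replete medium neither was called, with Adamts14 at 0.257 FPKM in TβRII-/- against 0.434 FPKM in TβRII fl/fl cells. The replete log2 ratio of Adamts2 was 0.89. Pcolce2, an enhancer of procollagen cleavage, was 7.66 FPKM in TβRII-/- against 0.951 FPKM in TβRII fl/fl cells in replete medium. After starvation it was under 1 FPKM in both genotypes. Pcolce, read from a joined locus, was within 2-fold in both media. It was 308 FPKM in TβRII-/- against 284 FPKM in TβRII fl/fl cells after starvation, then 295 against 282 FPKM in replete medium. Over the list of 11 genes, 2 of 7 tested were higher and 1 lower after starvation, and 1 of 8 was higher and 3 lower in replete medium, with median log2 ratios of 0.077 and -0.53.

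Of the fibrillar collagens, the main substrates of Lox, Col5a1 and Col5a3 of 11 reached 1 FPKM in a starved library. In replete medium 4 were tested and Col5a1, a chain that regulates fibril width, was lower, at 8.12 FPKM in TβRII-/- against 20.1 FPKM in TβRII fl/fl cells. Col1a1 was at most 2.12 FPKM, in replete TβRII fl/fl cells. Col5a1 had the highest FPKM of these genes in each library, and Lox was above it in all 4.

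Collagen IV, the substrate of Loxl2, was abundant. Col4a1, one of the widely expressed chains, was 133 FPKM in TβRII-/- against 193 FPKM in TβRII fl/fl cells after starvation, then 99.4 FPKM in TβRII-/- against 249 FPKM in TβRII fl/fl cells in replete medium. None of the 9 genes of this network was higher in either medium, where 8.02% of all loci were after starvation and 7% in replete medium. With 9 genes nothing is read from this. Nid1 (nidogen 1), which links laminin to collagen IV, was lower in both, at 0.391 FPKM in TβRII-/- against 27.3 FPKM in TβRII fl/fl cells after starvation, then 0.187 FPKM in TβRII-/- against 30.8 FPKM in TβRII fl/fl cells in replete medium. In replete medium 5 of 9 were lower, Nid1, Col4a1, Col4a2, Col4a3 and Col4a4, and the median log2 ratio was -1.23, against -0.45 after starvation. Loxl2 was called lower in the same medium. Col4a5, a chain that pairs with Col4a3 and Col4a4 in the kidney, had log2 ratios of 0.78 and 0.77, within 2-fold.

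Among 16 elastic fiber genes, members with high and low ratios stood side by side. Efemp1 (fibulin-3) was 289 FPKM in TβRII-/- against 39.4 FPKM in TβRII fl/fl cells after starvation, then 257 FPKM in TβRII-/- against 61.0 FPKM in TβRII fl/fl cells in replete medium. Ltbp2, a latent TGF-β binding protein, was 0.167 FPKM in TβRII-/- against 4.15 FPKM in TβRII fl/fl cells after starvation, then 0.0402 FPKM in TβRII-/- against 34.4 FPKM in TβRII fl/fl cells in replete medium. Fbn1 (fibrillin-1) was lower in TβRII-/- cells throughout (log2 ratios, -1.35 and -2.25), and Mfap5, a microfibril protein, was about 4 FPKM in TβRII-/- cells in each medium, with TβRII fl/fl cells listed at 0. In starved cells 2 of 10 were higher and 4 lower (median 0.35), and in replete cells 2 of 12 were higher and 7 lower (median -1.17). These medians depended on the minimum, with 0.055 in starved and -0.61 in replete cells without one, and 0.11 and -0.40 at 5 FPKM. Eln, the elastin gene itself, did not reach 1 FPKM in any library, at most 0.366 FPKM.

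Of other collagen-modifying enzymes and chaperones, 13 of 16 lay within 2-fold in each medium. Over all loci tested, 14.7% were called after starvation and 18.1% in replete medium, so most loci lay within 2-fold as well. P4ha1, a prolyl 4-hydroxylase subunit, was higher after starvation, at 127 FPKM in TβRII-/- against 56.1 FPKM in TβRII fl/fl cells. P4ha2 was lower in replete medium, at 11.6 FPKM in TβRII-/- against 34.3 FPKM in TβRII fl/fl cells. The prolyl 3-hydroxylase genes P3h2 and P3h3 were lower in either medium, at log2 ratios of -1.53 and -1.37 after starvation and -1.26 and -1.49 in replete medium. The genes that supply copper showed no call after starvation, 0 of 9, from which nothing is read with 14.7% called over all loci. In replete medium Mt1 and Mt2, the metallothioneins, were lower, at log2 ratios of -1.30 and -1.20, and Slc31a1, the copper importer CTR1, had log2 ratios of 0.81 and 0.36. Of the other copper amine oxidases Aoc1, a diamine oxidase, was measured, at 0.0819 FPKM in TβRII-/- against 5.69 FPKM in TβRII fl/fl cells after starvation, then 0.0436 FPKM in TβRII-/- against 17.5 FPKM in TβRII fl/fl cells in replete medium.

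Hypoxia-inducible genes and TGF-β-induced genes, the classes known to include Lox, were set beside it. Of hypoxia-inducible targets, 9 of 14 were higher in starved TβRII-/- cells and none lower (median log2 ratio 1.14), and in replete medium 1 of 13 was higher and 1 lower (median 0.17). Bnip3, a mitophagy receptor, was 137 FPKM in TβRII-/- against 29.2 FPKM in TβRII fl/fl cells after starvation, then 19.6 FPKM in TβRII-/- against 28.8 FPKM in TβRII fl/fl cells in replete medium. Pdk1, which restrains pyruvate dehydrogenase, was 52.9 FPKM in TβRII-/- against 10.5 FPKM in TβRII fl/fl cells after starvation, then 7.96 FPKM in TβRII-/- against 9.57 FPKM in TβRII fl/fl cells in replete medium. Bnip3 and Pdk1 thus shared the starved call of Lox but not its replete one. The 1 hypoxia target called lower in replete medium was P4ha2, which shared the replete call of Lox but not its starved one. Its log2 ratios were 0.55 starved and -1.49 replete. The 1 called higher in replete medium was Slc2a1, which was also higher after starvation (log2 ratios, 1.12 starved and 1.01 replete). Of TGF-β-induced targets, 4 of 12 were higher and 1 lower after starvation (median 0.23), and 1 of 14 was higher and 6 lower in replete medium (median -0.82). Ccn1 was higher in both media, at log2 ratios of 2.80 and 2.75, while Bhlhe40 was lower in replete medium alone, at -2.14. Among Snail, Twist and Zeb factors, none of 5 was called after starvation. Snai2 (2.81 FPKM in TβRII-/- against 10.8 FPKM in TβRII fl/fl cells) and Twist2 (8.51 FPKM in TβRII-/- against 20.9 FPKM in TβRII fl/fl cells) were lower in replete medium. Snai1 did not reach 1 FPKM.

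**Figure D4:**
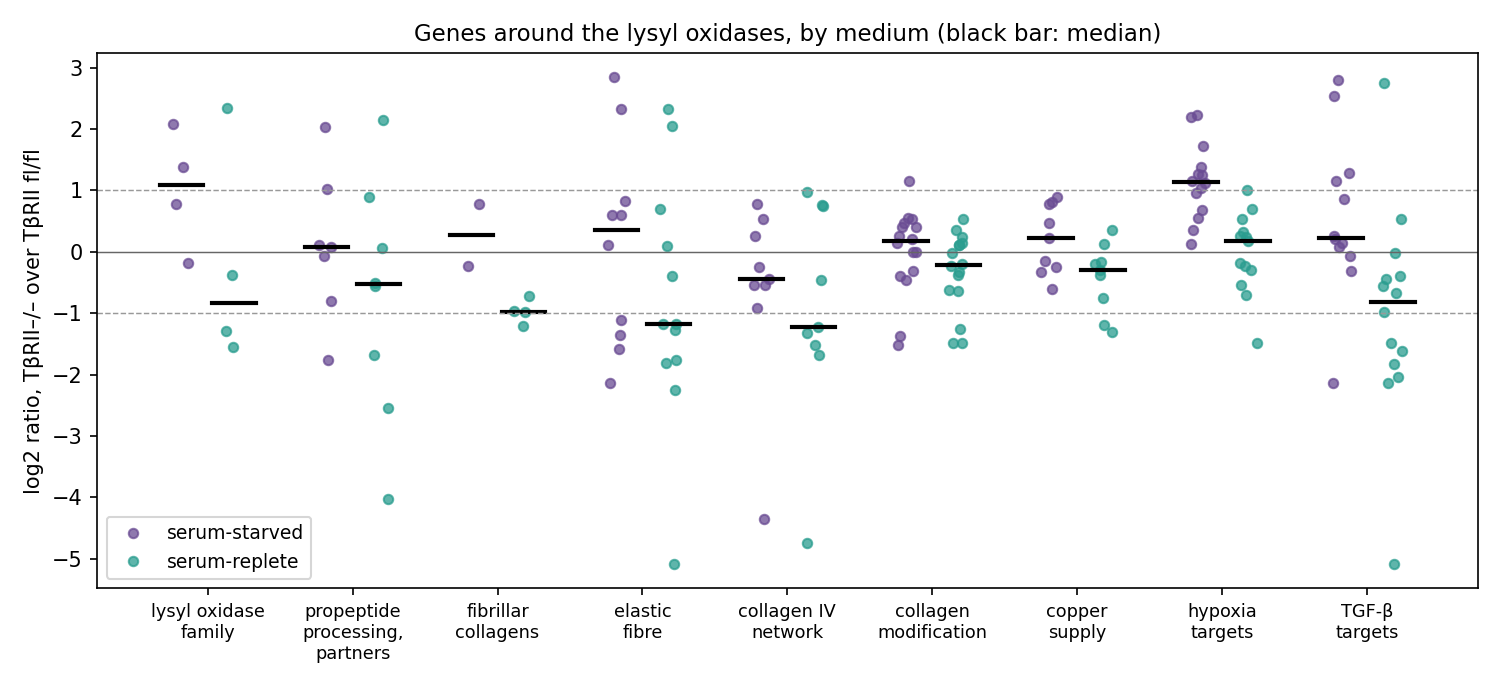
Log2 ratio of FPKM + 1 in TβRII-/- over TβRII fl/fl cells for each gene with at least 1 FPKM in a medium, by list, serum-starved in purple and serum-replete in teal, with black bars at the medians and dashed lines at 2-fold. The median of the lysyl oxidase family is 1.08 in starved and -0.83 in replete cells, hypoxia targets have medians of 1.14 and 0.17, and TGF-β targets 0.23 and -0.82.

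Since fibroblasts and smooth muscle make much of the Lox in tissues, markers of these cells were read in the same libraries. The 10 fibroblast markers summed to 0.629 FPKM in TβRII-/- against 0.687 FPKM in TβRII fl/fl cells after starvation, then to 0.637 FPKM in TβRII-/- against 2.81 FPKM in TβRII fl/fl cells in replete medium, with Pdgfra, Pdgfrb, Dpt and Tcf21 under 0.1 FPKM or at 0 throughout. The 6 smooth muscle and myofibroblast markers summed to 479 FPKM in TβRII-/- against 443 FPKM in TβRII fl/fl cells after starvation, then to 654 FPKM in TβRII-/- against 1768 FPKM in TβRII fl/fl cells in replete medium. Acta2 (α-smooth muscle actin) made up much of this, at 387 FPKM in TβRII-/- against 1459 FPKM in TβRII fl/fl cells in replete medium. It was lower there together with Lox, Loxl2, Cnn1 and Actg2. After starvation Acta2 was 296 FPKM in TβRII-/- against 163 FPKM in TβRII fl/fl cells, within 2-fold. Smtn was within 2-fold in both media, at 261 FPKM in TβRII-/- against 277 FPKM in TβRII fl/fl cells in replete medium. Myh11 and Des were at most 0.199 and 0.194 FPKM. The part of such cells in the Lox values was not tested. In bulk RNA fewer cells of a type and less RNA per cell cannot be told apart. Of 18 collecting duct markers 11 reached 1 FPKM in each medium, of which 5 were lower and 1 higher after starvation and 6 lower and 1 higher in replete medium. Aqp2, the vasopressin-regulated water channel that marks principal cells, was listed at 0 in all 4 libraries. Krt8 was 0.133 FPKM in TβRII-/- against 142 FPKM in TβRII fl/fl cells after starvation. The gene called higher after starvation was Gata3, read from a joined locus, at 2.62 FPKM in TβRII-/- against 0.175 FPKM in TβRII fl/fl cells. In replete medium it was Krt18, at 89.1 FPKM in TβRII-/- against 25.1 FPKM in TβRII fl/fl cells. Tfcp2l1 (64.7 to 97.8 FPKM) and Hoxb7 (35.1 to 54.0 FPKM) were within 2-fold in both media. The 6 leukocyte markers summed to 19.2 FPKM in TβRII-/- against 20.1 FPKM in TβRII fl/fl cells after starvation then to 19.98 FPKM in TβRII-/- against 12.3 FPKM in TβRII fl/fl cells in replete medium. The 6 endothelial markers summed to 1.89 FPKM in TβRII-/- against 0.524 FPKM in TβRII fl/fl cells after starvation, then to 7.58 FPKM in TβRII-/- against 1.17 FPKM in TβRII fl/fl cells in replete medium. Csf1r, a macrophage receptor, was 7.99 FPKM in TβRII-/- against 2.94 FPKM in TβRII fl/fl cells in replete medium. Plvap, an endothelial gene, was 7.54 FPKM in TβRII-/- against 1.07 FPKM in TβRII fl/fl cells there. Neither was called after starvation. In starved cells Csf1r was 15.1 FPKM in TβRII-/- against 15.2 FPKM in TβRII fl/fl cells, and Plvap was 1.85 against 0.428 FPKM. Ptprc, a marker of all leukocytes, was at most 1.34 FPKM, and Cdh5, which defines endothelium, was at 0. The part of these cell types in the lysyl oxidase values was not tested.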

How the data were processed

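RNA-Seq of 4 IMCD libraries was analysed, and groups were taken from the sample titles. The authors deposited FPKM values for 37981 loci in a table per medium, made with TopHat2, Cufflinks and Cuffdiff on mm10 according to the submitters' processing notes. Their versions and the annotation release: not given in the sources used here. Cuffdiff scaled each table separately, so genotypes were compared within a medium. Columns and 12 files with the authors' own comparison (fold changes, test statistics, p-values, lists of significant genes and their categories) were not used.

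Log2 ratios of FPKM + 1 (pseudocount 1) were computed in Python 3.11 with pandas 2.3.3 for loci with at least 1 FPKM in either library, which understates the change of low genes. The call was set at 2-fold. The calculation was tested on simulated data. The labels give 30000000 reads of 50 bp. Low values of long single-transcript genes lie near whole steps (58.4% to 66.1% within 10%), which correspond to about 31800000 to 40800000 reads if fragments are 200 bp. Since the rest do not, counts were not recovered, and these depths and the read numbers derived from them are rough estimates.

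Members, 10 further gene lists and 5 marker lists were chosen with earlier results of these data known. All 159 symbols were found, some under older names. Named genes are the members, Tgfbr2, up to 3 genes per list and medium with the largest ratios, and up to 3 nearest genes per called member. A gene that this rule names is not reported here. Others (such as Col4a1, Eln, Aup1 and defining markers) were added after their values were seen. Coding sequences came from GENCODE M21. Locus starts were converted to count from 1. Alternatives were pseudocounts of 0.1 and 0.5, no filter, a filter of 5 FPKM, median centering, equal protein-coding sums, a 1.5-fold call and loci with a single symbol.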

Additional observations from a re-analysis of the deposited data

Results flagged for a closer look

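The genotype difference of Lox had opposite directions in the media, with a log2 ratio (TβRII-/- over TβRII fl/fl) of 2.08 in starved and -1.29 in replete cells, a difference of 3.38. The same was seen for Loxl1 at a smaller size, 0.78 and -0.37, a difference of 1.15. Neither difference between the media was tested, since each condition is 1 library, and the media were scaled in separate tables. Groups of 1 library allow no search for samples that stand apart.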

How the results depend on the processing

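The calls of Lox, Loxl2 and Loxl4 kept their direction and their side of 2-fold under all 8 alternatives. The filters, the 1.5-fold call and the single-symbol rule left these ratios as they were. Only the pseudocounts, median centering and equal sums could move them. Lox ranged over 2.01 to 2.12 in starved and -1.31 to -1.26 in replete cells, Loxl2 over -1.64 to -1.53 in replete cells, and Loxl4 over 1.31 to 1.42 in starved and 2.34 to 2.42 in replete cells. At a 1.5-fold call Loxl1 was also called higher after starvation (0.78), and the number of loci called was 3824 in starved and 4542 in replete cells, against 1860 and 2292 at 2-fold, as a wider threshold must give. Without the filter, which lets Loxl3 in, the starved median of the family was 0.78, against 1.08 with it. The number of loci called lower after starvation was 561 of 10134 tested with a filter of 5 FPKM, against 842 of 12687. Apart from the 1.5-fold call, which left list medians as they were, 10 list medians crossed 2-fold outward, mostly with smaller pseudocounts, and 9 inward, with other filters. The replete median of elastic fiber genes was -0.40 at 5 FPKM and -0.61 without a filter, against -1.17. No replicate could be left out. No paired analysis was possible because the genotypes are compared within a medium, where each has 1 library. Loxl3 rests on roughly 11 to 64 reads a library.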
